A study of Mus musculus with 4 samples.

Results

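The genes described here are 45 genes of the cell cycle and DNA replication, measured in 4T1, a line of mouse mammary carcinoma cells. They were listed by symbol, with no cut on a measured value, but with earlier results of these data known. Each gene was read from its brightest probe set among those that the platform annotation pairs with that gene alone. Of the 45 genes, 44 had such a probe set, among 18193 genes on the array with one, and Ccnb1 had none. They were divided by role into 19 genes of G1 and S phase and 26 of G2 and mitosis, of which 25 were measured. The study compared 2 CD44v8-10-positive with 2 CD44v8-10-negative 4T1 samples. CD44v8-10 is a splice form of the adhesion receptor CD44 that carries variant exons. Both groups were cultures of the same line in RPMI medium with bovine serum, kept in normoxia and picked by hand under a microscope. How the cells were divided by CD44v8-10 is not given in the labels used here. Nothing in them says that the 2 samples of a group were separate cultures. The p-values therefore rest on the spread of these arrays alone, and that spread may be technical.

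A dividing cell copies its DNA in S phase and separates the copies in mitosis, and each step has its own wave of transcripts. D- and E-type cyclins with their kinases release E2F factors from the retinoblastoma protein, and E2F drives the genes that license origins and supply nucleotides. Later, a complex of B-MYB and FOXM1 drives the genes of the spindle, the kinetochore and the mitotic kinases, many of which carry a cell cycle homology region (CHR) near their start. In bulk RNA from a growing carcinoma line, the level of these transcripts follows both the share of cells in each phase and the amount of RNA per cell, and these cannot be told apart here.

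CHR letters were more common in the promoters of the mitotic genes than in those of the S-phase genes. RefSeq promoter windows (GRCm38.p6, 250 bases before to 50 bases after the gene start) were matched by symbol for 36 of the 45 genes, 16 of G1 and S phase and 20 of G2 and mitosis (Ccnb1 among them). The CHR, searched as TTTGAA on both strands, occurred in 15 of 20 windows of G2 and mitosis genes, against 2 of 16 windows of G1 and S-phase genes and 18.1% of all 27025 promoters of the same length. A CCAAT box, searched as CCAAT on both strands, occurred in 17 of 20 windows of the mitotic genes, in 11 of 16 of the S-phase genes and in 37.9% of all promoters. CHR and CCAAT box stood together in 14 of 20 mitotic windows, in 2 of 16 S-phase windows and in 7.12% of all promoters. The E2F core, searched as GGCGGGA on both strands, was in 7 of 16 S-phase windows, 5 of 20 mitotic windows and 11.4% of all promoters. A variant CHR, TTCGAA, was in 3 of 20 mitotic windows, 1 of 16 S-phase windows and 1.57% of all promoters. Of the 19 CHR matches in mitotic windows, 13 lay within 50 bases of the gene start. One pair of matches to different motifs overlapped among all member windows. These matches describe the sequences and are not evidence of binding.

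**Figure D1:**
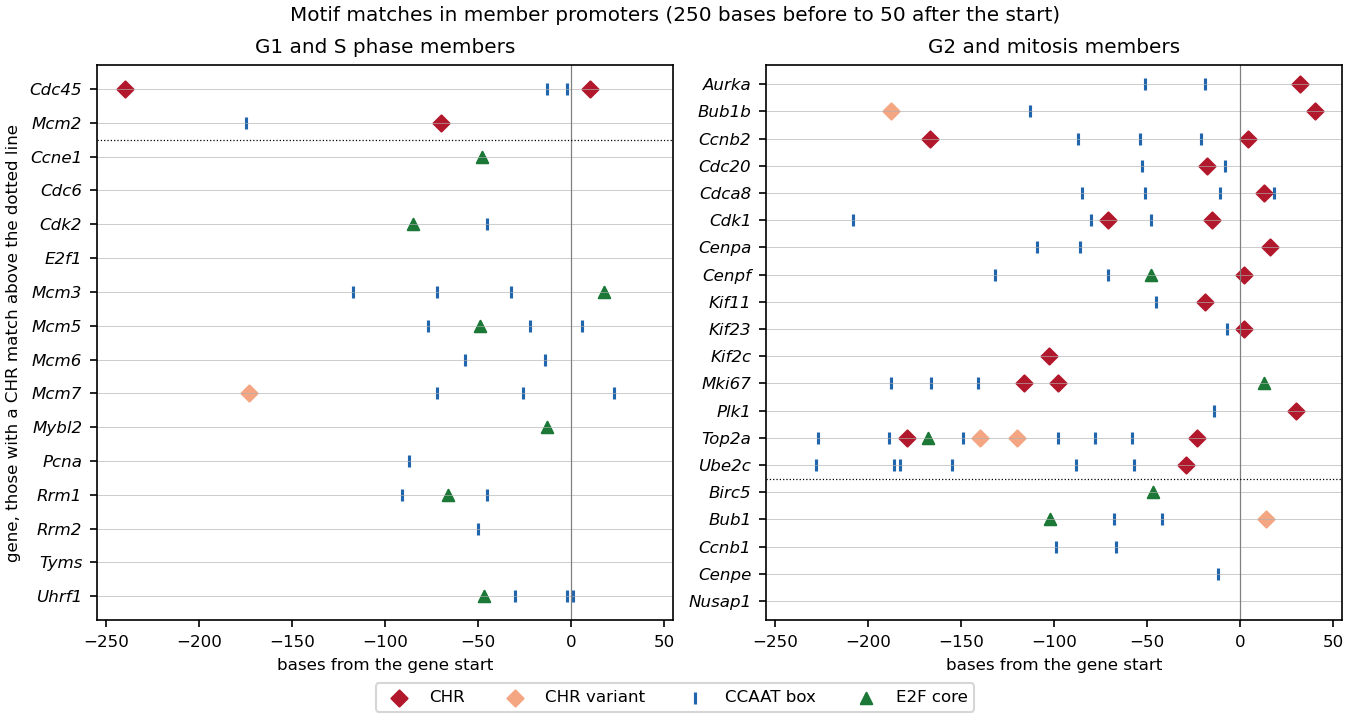
Matches to the 4 motifs in the promoter windows of the members, by distance from the gene start in bases (x axis), with a row for each gene and genes with a CHR match above the dotted line. In the 20 windows of G2 and mitosis genes the CHR is in 15, against 2 of the 16 windows of G1 and S-phase genes.

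The windows of the 3 brightest genes of each class with an entry and a match are printed to show these arrangements, and that of Ccne1, the gene with the greatest difference, was added after its values were seen. Capitals mark the motif matches on either strand, and each window reads 5′ to 3′ on the strand of its gene. In the mitotic genes Mki67, Cdk1 and Top2a, each window holds CHR letters and several CCAAT boxes.
Mki67, chr7:135716330-135716629, minus strand: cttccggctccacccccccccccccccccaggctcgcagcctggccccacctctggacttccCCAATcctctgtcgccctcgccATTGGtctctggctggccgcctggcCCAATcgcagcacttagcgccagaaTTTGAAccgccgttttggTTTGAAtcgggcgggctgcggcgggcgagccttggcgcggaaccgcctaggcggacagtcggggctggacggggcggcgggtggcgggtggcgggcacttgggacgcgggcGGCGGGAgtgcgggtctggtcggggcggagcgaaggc
Cdk1, chr10:69352863-69353162, minus strand: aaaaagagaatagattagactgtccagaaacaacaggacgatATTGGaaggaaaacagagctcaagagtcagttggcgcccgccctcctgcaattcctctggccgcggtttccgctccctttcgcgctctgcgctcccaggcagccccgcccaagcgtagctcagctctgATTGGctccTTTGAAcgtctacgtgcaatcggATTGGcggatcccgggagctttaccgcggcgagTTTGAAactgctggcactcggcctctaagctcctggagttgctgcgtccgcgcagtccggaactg
Top2a, chr11:99024140-99024439, minus strand: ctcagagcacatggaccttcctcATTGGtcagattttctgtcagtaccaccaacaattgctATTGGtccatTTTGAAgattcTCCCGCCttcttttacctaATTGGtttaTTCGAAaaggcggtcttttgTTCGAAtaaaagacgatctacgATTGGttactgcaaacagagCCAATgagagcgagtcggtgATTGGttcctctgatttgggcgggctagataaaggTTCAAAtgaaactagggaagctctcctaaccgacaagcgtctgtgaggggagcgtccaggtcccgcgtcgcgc
In the S-phase genes Pcna, Mcm7 and Mcm5 there are CCAAT boxes and no CHR in its main form, and in Ccne1 a single E2F core.
Pcna, chr2:132253131-132253430, minus strand: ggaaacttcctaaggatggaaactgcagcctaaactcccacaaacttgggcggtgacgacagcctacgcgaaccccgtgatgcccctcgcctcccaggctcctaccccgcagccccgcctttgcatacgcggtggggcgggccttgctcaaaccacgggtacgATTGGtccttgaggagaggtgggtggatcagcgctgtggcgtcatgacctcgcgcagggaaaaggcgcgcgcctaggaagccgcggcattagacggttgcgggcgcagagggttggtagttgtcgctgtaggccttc
Mcm7, chr5:138171834-138172133, minus strand: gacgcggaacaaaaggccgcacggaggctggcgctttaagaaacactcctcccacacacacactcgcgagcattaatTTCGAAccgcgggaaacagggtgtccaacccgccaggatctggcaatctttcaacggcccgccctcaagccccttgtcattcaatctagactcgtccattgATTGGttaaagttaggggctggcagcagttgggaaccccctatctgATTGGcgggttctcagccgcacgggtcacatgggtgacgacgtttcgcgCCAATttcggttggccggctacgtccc
Mcm5, chr8:75109259-75109558, plus strand: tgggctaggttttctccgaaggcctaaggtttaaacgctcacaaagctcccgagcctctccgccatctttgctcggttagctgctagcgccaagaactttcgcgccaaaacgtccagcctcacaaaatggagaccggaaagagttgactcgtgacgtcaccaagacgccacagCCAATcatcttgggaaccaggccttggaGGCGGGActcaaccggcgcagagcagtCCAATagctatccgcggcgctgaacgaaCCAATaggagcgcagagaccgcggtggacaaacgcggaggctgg
Ccne1, chr7:38107441-38107740, minus strand: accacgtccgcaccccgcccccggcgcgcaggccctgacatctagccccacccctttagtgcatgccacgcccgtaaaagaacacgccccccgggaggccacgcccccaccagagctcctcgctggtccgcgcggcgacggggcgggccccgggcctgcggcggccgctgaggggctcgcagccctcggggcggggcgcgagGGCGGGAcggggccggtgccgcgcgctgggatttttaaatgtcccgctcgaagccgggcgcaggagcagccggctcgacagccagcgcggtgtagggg

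The 4 arrays were unequally bright as deposited, with 2% trimmed means of 237 and 220 (positive) against 196 and 345 (negative), and were quantile normalized. Signals below are these normalized intensities, differences are on the log2(signal + 16) scale as positive minus negative, and p-values are from limma with Benjamini-Hochberg adjustment over 11956 genes. The epithelial markers Epcam, Krt8, Krt18, Krt19, Cdh1 and Cldn4 were all above the filter level of 19.4. Their summed signals were 28512 and 29997 in positive cells, against 22779 and 27529 in negative cells. Singly, Epcam had 2309 and 2479 in positive cells, against 940 and 930 in negative cells. Cldn4 had 1792 and 1400 against 798 and 612, and Krt19 had 884 and 958 against 622 and 609. Krt8, Krt18 and Cdh1 overlapped between the groups. Of the markers of other cell types, 2 of 7 fibroblast and 5 of 7 macrophage genes were above the filter, with summed signals of 143 and 126 in the positive against 185 and 172 in the negative samples for fibroblast markers, and 498 and 616 against 421 and 392 for macrophage markers. The leukocyte genes Ptprc and Itgam were below the filter. No marker of endothelial cells (5 measured), lymphocytes (4) or erythroid cells (2) was above it. The part of these in the results was not tested.

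No cell cycle gene differed between CD44v8-10-positive and -negative cells after adjustment. All 44 measured genes were above the filter on dim probe sets and entered the test, and none passed an adjusted p of 0.05, where 0.0753% of all genes did (9 of 11956). The difference was above 0 in 29 of the 44 and below 0 in 15, where 54.3% of all genes were above 0. That count was 20 of 44 when each array was centred on its median and 11 of 44 with no scaling. In these settings the median of all genes was itself below 0, at -0.07 and -0.15, so the 54.3% does not apply to them. With quantile normalization the median log2 difference of the 44 genes was 0.07, beside 0.03 for all genes tested. At an unadjusted p under 0.05 there were 1 higher, Ccne1, and 1 lower, Tyms, where 4.45% of all genes passed (2.68% higher and 1.76% lower). The positive and negative arrays did not overlap in 11 of the 44 genes, 8 higher and 3 lower, where 32.3% of all genes did not (18.5% higher and 13.8% lower).

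Most of these differences had 95% intervals within a 2-fold change. For 41 of the 44 genes the interval lay inside that change in either direction, compared with 76.7% of all genes tested. The median standard error was 0.19 for the 44 genes and 0.24 for all genes tested, in a fit with an intensity trend. The part of signal level in this contrast was not tested. The 3 genes whose interval reached past a 2-fold change were Ccne1, Ccne2 and Tyms. The intervals rest on the spread between 2 arrays per group, taken in part over all genes by limma, and that spread may be technical. A larger difference between the cell groups is therefore not excluded. The median over the 19 genes of G1 and S phase was 0.07 (quartiles -0.07 and 0.17), and over the 25 of G2 and mitosis 0.08 (-0.15 and 0.14), against quartiles of -0.15 and 0.20 for all genes. These medians turned to -0.01 and -0.03 when each array was centred on its median and to -0.09 and -0.12 with no scaling, where the median of all genes was -0.07 and -0.15. Relative to that median of all genes they were 0.06 and 0.03 in both of these settings.

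**Figure D2:**
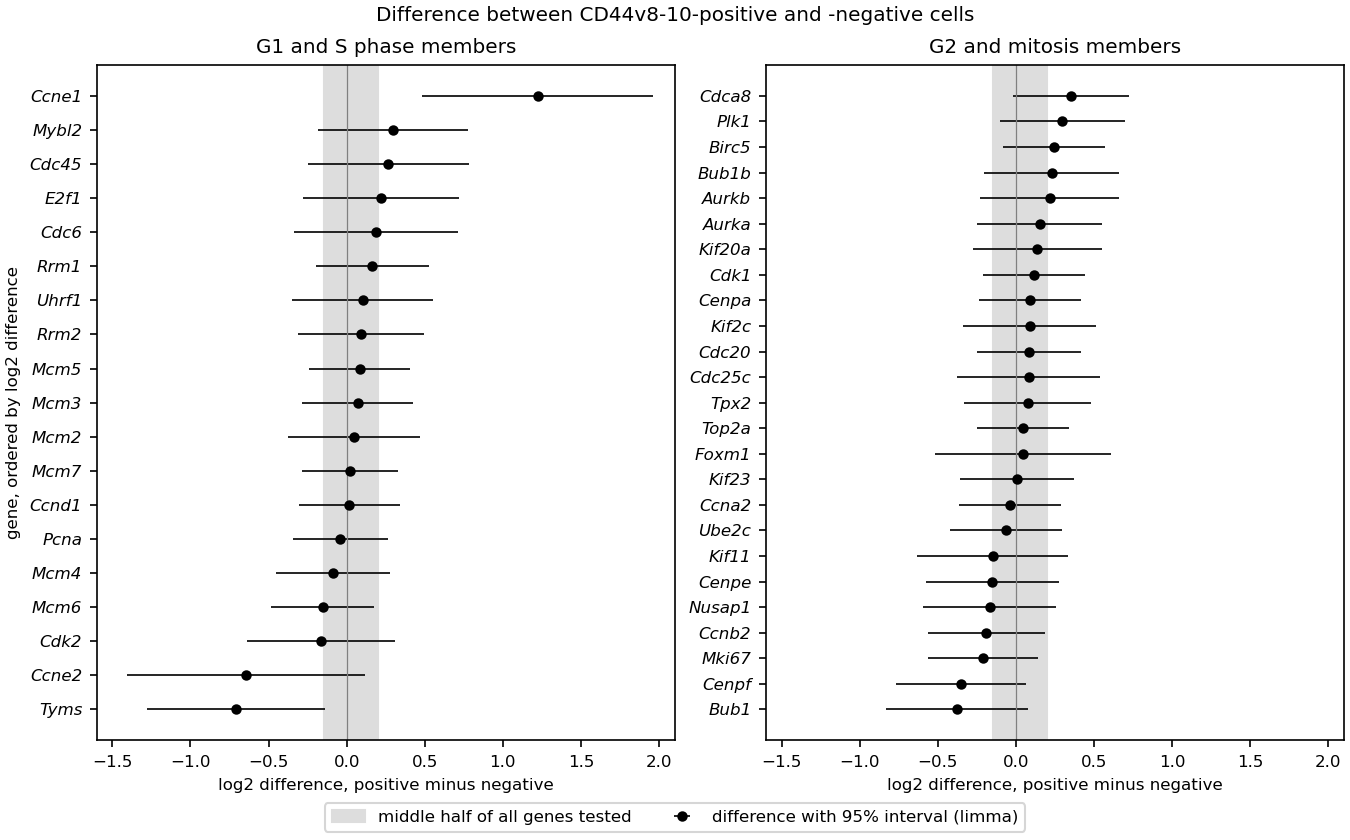
Log2 difference of each tested gene, positive minus negative (x axis), with its 95% interval from limma, beside the quartiles of all genes tested (grey band from -0.15 to 0.20). The intervals of Ccne1, Ccne2 and Tyms reach past a log2 value of 1 or -1, and those of the other 41 genes stay within.

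Among the cyclins of G1, the 2 E-type genes had opposite differences. Ccne1, which with CDK2 starts S phase, had signals of 231 and 430 in positive cells, against 180 and 86.9 in negative cells. The groups did not overlap, and the second array of each group stood furthest out. The difference was 1.22 ± 0.34 (SE), or 2.34-fold, with an unadjusted p of 0.00359 and an adjusted p of 0.715 by limma. The second probe set of Ccne1, with signals of 118 and 145 in positive and 103 and 63.8 in negative cells, gave 0.59. The first carries the suffix _x_at, which marks probes that may also match other transcripts. The Ccne1 difference ranged from 0.76 to 1.70 when any array was left out.

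Ccne2, the other E cyclin, had 627 and 236 in positive cells and 703 and 534 in negative cells. These groups overlapped, and the low value was that of positive replicate 2. Its difference was -0.64 ± 0.35 (adjusted p 0.985 by limma), and it was 0.03 without positive replicate 2. CDK2, the kinase that both cyclins activate, was encoded at signals of 806 and 877 in positive cells and 1117 and 796 in negative cells, a difference of -0.16 ± 0.22 (limma adjusted p 0.985) that was 0.08 without negative replicate 1. Cyclin D1, Ccnd1, which relays growth signals to the retinoblastoma protein, had 6237 and 8016 in positive and 6908 and 7074 in negative cells. In this probe set its groups overlapped, with a difference of 0.02. Of its other probe sets, one overlapped at 0.09. The other had 3064 and 3728 in positive and 4202 and 4447 in negative cells, and was separated lower at -0.35.

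In their brightest probe sets, the transcription factors of both waves had overlapping signals. E2f1, the activator of S-phase genes, had 368 and 508 in positive cells and 386 and 355 in negative cells, a difference of 0.22. Its second probe set, with 225 and 243 in positive and 182 and 174 in negative cells, was separated at 0.37. Mybl2, which encodes B-MYB, had 563 and 722 in positive cells and 569 and 468 in negative cells, with a difference of 0.30 ± 0.22 (limma adjusted p 0.985). Foxm1, the forkhead factor of the mitotic wave, had 281 and 460 in positive cells and 315 and 385 in negative cells, and its 0.04 was small beside the spread of the positive arrays. For Mybl2 and E2f1 positive replicate 2 was the highest array and negative replicate 2 the lowest, and for Foxm1 positive replicates 2 and 1 were the highest and the lowest.

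The replicative helicase was close to even between the groups in its brightest probe sets. There the 6 genes of the MCM2-7 ring, which unwinds DNA at the fork, had differences from -0.15 to 0.08. Their median was 0.04, and all 6 overlapped. Mcm5 had signals of 4757 and 5062 in positive cells and 4298 and 4990 in negative cells, a difference of 0.08. Mcm6 was at the other end, with 4544 and 4166 in positive and 5239 and 4480.3 in negative cells, a difference of -0.15. Mcm7 (0.02), Mcm2 (0.05), Mcm3 (0.07) and Mcm4 (-0.09) lay between, also with overlapping groups in these probe sets. Another probe set of Mcm2 was separated higher at 0.14. The other probe sets of Mcm3 ran from -0.26 to 0.37 with overlapping groups. With no scaling all 6 differences were below 0, from -0.28 to -0.03, where the median of all genes was itself -0.15.

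The factors that load and fire the ring had differences above 0 with overlapping groups. Cdc45, a part of the active helicase, had 512 and 626 in positive cells, against 562 and 390.2 in negative cells, a difference of 0.27 ± 0.24 (limma adjusted p 0.985). Cdc6, the loading ATPase, had 919 and 899.9 in positive and 1022 and 621 in negative cells, a difference of 0.19. In both genes negative replicate 2 was the low array, and without it Cdc6 was at -0.17 and Cdc45 at 0.01.

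In their brightest probe sets, genes of the fork and of nucleotide supply divided into bright genes with small differences and 1 dim gene, Tyms. Pcna, the sliding clamp of the polymerases, had 10319 and 9248 in positive cells and 11243 and 8992 in negative cells, a difference of -0.04 ± 0.14 (limma adjusted p 0.993). Rrm1 and Rrm2 encode the subunits of ribonucleotide reductase. Rrm1 had 3406 and 3537 in positive and 3459 and 2774 in negative cells, a difference of 0.16, and Rrm2 had 4683 and 3913 in positive and 4785 and 3363 in negative cells, a difference of 0.09. Uhrf1, which guides maintenance methylation behind the fork, had 1370 and 1833 in positive and 1321 and 1646.5 in negative cells, a difference of 0.10. All 4 overlapped between the groups in these probe sets. The other probe sets of Rrm2 gave 0.22 and 0.47, and the mean over its probe sets gave 0.26. Another probe set of Rrm1 gave 0.003, and that of Uhrf1 had the opposite sign, -0.10. These also overlapped.

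Tyms, the thymidylate synthase gene, had 125 and 91.6 in positive cells, against 215 and 160 in negative cells. Both positive arrays lay below both negative arrays. The difference was -0.71 ± 0.26, with an unadjusted p of 0.0186 and an adjusted p of 0.985 by limma. A second probe set above the filter had overlapping signals of 53.0 and 85.3 in positive and 62.7 and 86.4 in negative cells and gave -0.10. Another 2 probe sets of Tyms were below the filter.

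**Figure D3:**
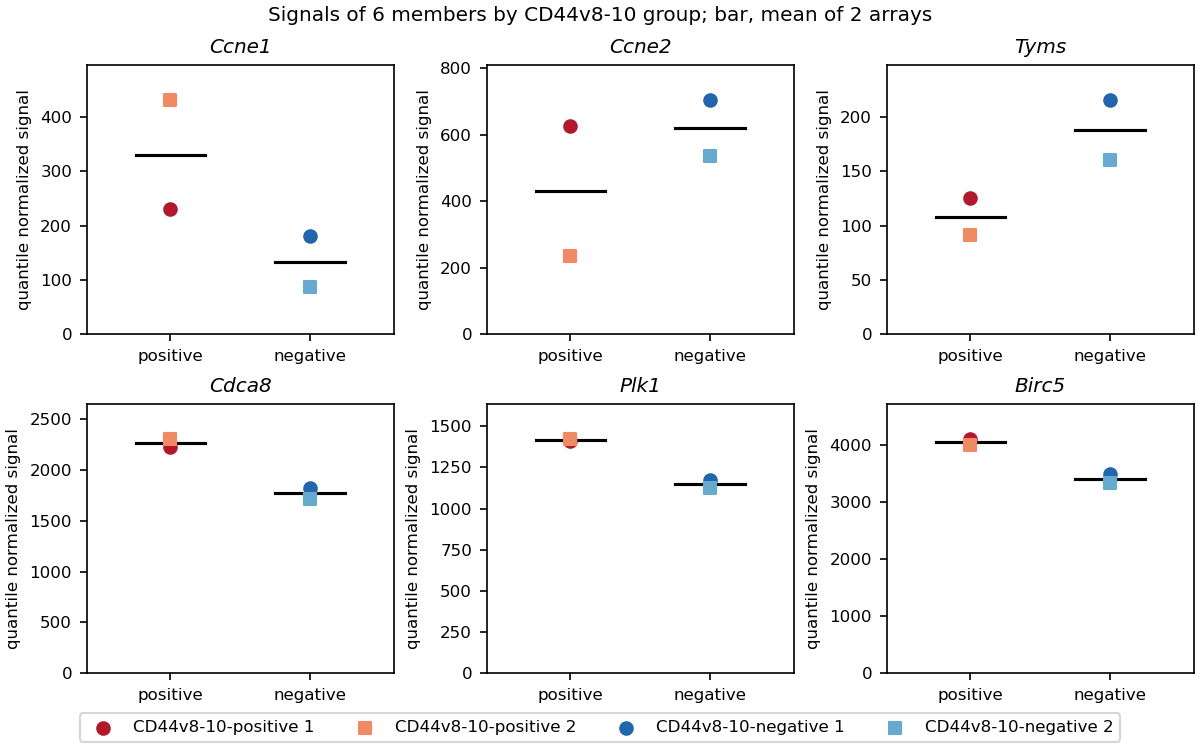
Quantile normalized signal of 6 genes (y axis, from 0) in CD44v8-10-positive and -negative samples, with a point for each array and a bar at the mean of 2 arrays. Ccne1, Cdca8, Plk1 and Birc5 have both positive arrays above both negative arrays, Tyms has both below, and Ccne2 overlaps.

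Among the listed mitotic genes, 3 kinases (Plk1, Aurka and Aurkb) and 2 passenger complex genes were grouped by role, and all 5 lay above 0 in positive cells. The passenger complex, which corrects the attachment of chromosomes to the spindle, joins Aurora B (Aurkb) to survivin (Birc5) and borealin (Cdca8). Cdca8 had signals of 2222 and 2300.05 in positive cells, against 1822 and 1712 in negative cells, and a difference of 0.35 ± 0.17 (unadjusted p 0.0602, adjusted p 0.985 by limma). Its other 2 probe sets gave 0.31 and 0.49, also with separated groups. Birc5 had 4102 and 3999 in positive cells, against 3495 and 3327 in negative cells, a difference of 0.25 ± 0.15 (limma adjusted p 0.985). The positive arrays of both genes lay above the negative arrays by more than the arrays of a group lay apart.

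Aurkb had 644 and 699 in positive and 548 and 602 in negative cells, a difference of 0.22 with separated groups, while its other probe set overlapped and gave 0.05. Plk1, the polo-like kinase of mitotic entry and spindle assembly, had 1410 and 1421 in positive cells, against 1173 and 1124 in negative cells, a difference of 0.30 ± 0.18 (limma adjusted p 0.985). Aurka, the kinase of the spindle poles, had 2041 and 1807 in positive and 1890.5 and 1575 in negative cells and overlapped, at 0.15. The groups were thus separated in 4 of these 5 genes, against 18.5% of all genes separated with the positive arrays higher, and the median difference was 0.25. All 5 stayed above 0 without any single array and in each scaling with one exception, Aurka at -0.04 with no scaling. None passed the adjusted threshold in any of the 15 other settings. The count depends on the genes grouped. Of the listed kinases placed under other roles, Bub1 was at -0.38 with groups separated lower in its brightest probe set. Cdk1 was at 0.12 with overlapping groups. Outside the 45, Incenp, the scaffold of the passenger complex, was at -0.13 with overlapping groups. Kinases in the list of mitosis genes outside the 45 went both ways. Ttk, Nek2, Wee1 and Cit were at -0.20, -0.11, -0.20 and -0.27, and Melk and Pbk at 0.13 and 0.05. These genes outside the 45 are named after their values were seen.

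The cyclins and the kinase of mitotic entry were nearly level. Cdk1, the mitotic kinase, had 5821 and 5183 in positive cells and 5474 and 4678 in negative cells, a difference of 0.12. Its cyclins Ccna2 and Ccnb2 had differences of -0.04 and -0.19, both with overlapping groups. Ccnb2 had 2830.1 and 2372 in positive and 3183 and 2742 in negative cells. Cdc25c, the phosphatase that activates CDK1, had 437 and 400.4 in positive and 398 and 391 in negative cells. Its groups did not overlap, and the difference was 0.08, or -0.04 with centring on array medians. Its other probe set, with 292 and 367 in positive and 256 and 265 in negative cells, was separated at 0.31, and the mean over both gave 0.20.

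Checkpoint and anaphase genes went both ways. Bub1, a kinase of the spindle checkpoint, had 2365 and 1551 in positive cells, against 2378 and 2610 in negative cells, a difference of -0.38 ± 0.21 (unadjusted p 0.0958, adjusted p 0.985 by limma). The first positive array was close to the lower negative array, and without positive replicate 2 the difference was -0.07. Its other probe set gave the opposite sign, 0.36, with separated groups, and the mean over its probe sets gave -0.01. Bub1b, which encodes the checkpoint protein BUBR1, had 1138 and 1448 in positive and 1051 and 1135.5 in negative cells, a difference of 0.23. Its groups were separated in this probe set, and another above the filter overlapped at 0.09. Cdc20 and Ube2c, the activator and the ubiquitin-conjugating enzyme of the anaphase-promoting complex, overlapped in their brightest probe sets, at 0.08 and -0.06. The other probe sets of Cdc20 gave 0.19 with overlapping groups and 0.21 with groups separated higher.

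Centromere and kinetochore genes were mixed in the same way. Cenpf, a large kinetochore protein, had 2419 and 1798 in positive cells, against 2455 and 2902 in negative cells, a difference of -0.35 ± 0.19 (unadjusted p 0.0895, adjusted p 0.985 by limma) that was -0.14 without positive replicate 2. Its other probe sets gave 0.03 and 0.16 with overlapping groups. Cenpe, the kinetochore motor, was at -0.15 with overlapping groups, and its other probe set gave 0.16. Cenpa, the histone variant of centromeres, had 3797 and 3694 in positive and 3482 and 3537 in negative cells, a small difference of 0.09 with separated groups, and its other probe set gave -0.30.

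In the brightest probe sets, the spindle motors and their partners had no separated gene among 6. Their differences ran from -0.17 for Nusap1, a microtubule-bundling protein, to 0.14 for Kif20a, a kinesin of cytokinesis, with a median of 0.04. Nusap1 had 2389 and 1806 in positive and 2090.2 and 2611 in negative cells, so the second array was the lowest in positive cells and the highest in negative cells. Kif11, the motor that separates the spindle poles, had 1271 and 1044 in positive and 1058 and 1543 in negative cells, at -0.15. The second probe set of Nusap1 gave the opposite sign, 0.24, with separated groups. Tpx2, which activates Aurora A on the spindle, was at 0.08 with overlapping groups, while its other 3 probe sets were separated at 0.20, 0.37 and 0.68 and the mean over its probe sets gave 0.33. Kif2c (0.09) and Kif23 (0.01) completed the group.

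The usual marker of proliferating cells, Mki67, had 5277 and 4016 in positive cells and 5437 and 5231 in negative cells. Positive replicate 2 was the lowest array, with a gap that the other 3 arrays did not show among themselves. The difference of -0.21 ± 0.16 had a limma adjusted p of 0.985 and a 95% interval from -0.56 to 0.14, and was -0.01 without positive replicate 2. Top2a, the topoisomerase that untangles replicated chromosomes, had 6348 and 6093 in positive and 5870.3 and 6183 in negative cells, a difference of 0.05. Both genes overlapped between the groups.

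**Figure D4:**
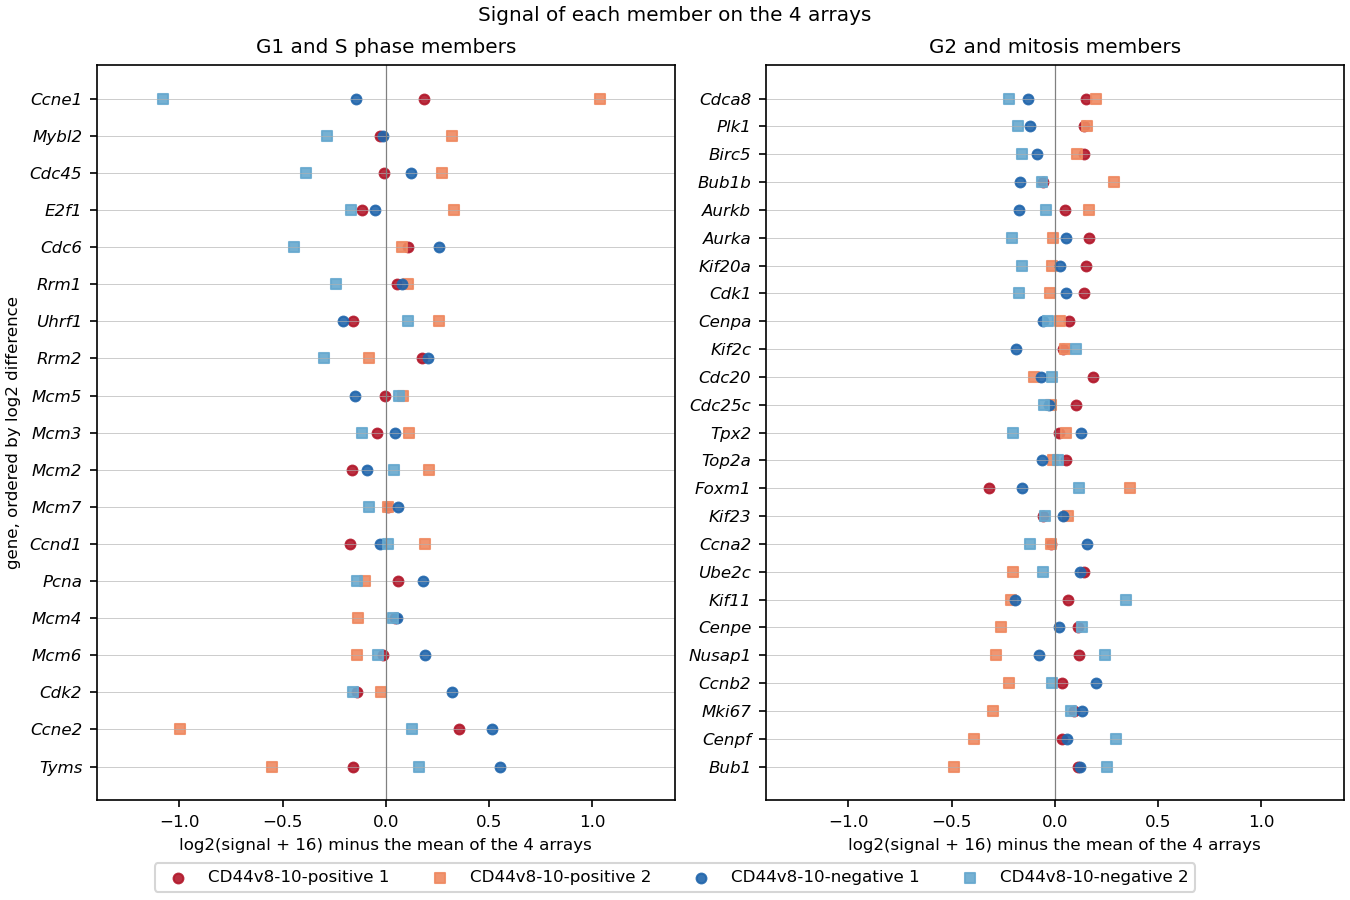
Log2(signal + 16) of each tested gene minus its mean over the 4 arrays (x axis), with a row for each gene and a point for each array. Ccne1, Ccne2 and Tyms spread furthest, and in Bub1, Cenpf and Mki67 positive replicate 2 stands lowest.

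The arrays of a group differed from each other in these genes. Over the 44 genes the median size of the difference between 2 arrays of a group was 0.20, against 0.25 for all genes. In G1 and S-phase genes, negative replicate 2 was the lowest array in 11 of 19 genes and the highest in 0, while it was the lowest in 29.1% of all genes. With arrays scaled to one trimmed mean it was lowest in 13 of 19 (26.6% of all genes), and when each array was centred on its median in 7 of 19 (14.7% of all genes). This array was also the brightest as deposited, and its part in the pattern was not tested. Between same-numbered arrays, positive exceeded negative in 3 of 19 S-phase genes for replicate 1 and in 15 of 19 for replicate 2. In the G2 and mitosis genes these counts were 17 and 14 of 25, and over all genes the shares were 50.4% and 55.4%.

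**Figure D5:**
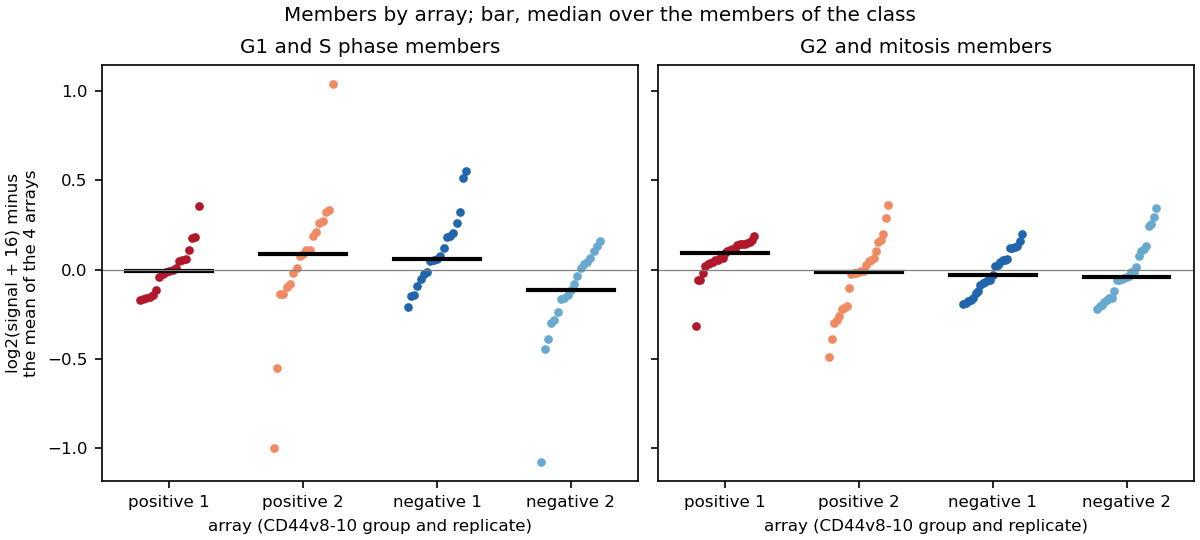
Log2(signal + 16) of each tested gene minus its mean over the 4 arrays (y axis), by array, with the bar at the median over the genes of the class. In G1 and S-phase genes the positive arrays have medians of -0.01 and 0.09, against 0.06 and -0.12 for the negative arrays, and in G2 and mitosis genes the positive arrays have 0.09 and -0.01, against -0.03 and -0.04 for the negative arrays.

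More than 1 probe set above the filter was present for 32 of the 44 genes. In 20 of these all probe sets lay on the same side of 0, and in 12 they did not, among them Bub1, Cenpf, Cenpa, Mcm3 and Kif23. Beside the brightest, 50 other probe sets of these genes were above the filter, of which 38 lay above 0 and 12 below, with 12 separated higher and 1 lower. The shares over all probe sets were not computed. In the brightest probe sets of all genes, 54.3% lay above 0, 18.5% were separated higher and 13.8% lower. The 50 other probe sets share genes and arrays with the values above and were not tested. Mcm3 had 5 probe sets, from -0.26 to 0.37, and the 4 of Mcm7 were from 0.02 to 0.08. Which part of a transcript each probe set reads was not analysed here.

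Genes of the same processes outside the 45 were not called either. Of 142 tested in 4 lists, 0 passed the adjusted threshold by limma, where 0.0753% of all genes did. At an unadjusted p under 0.05, 3 were higher and 1 lower, where 2.68% of all genes were higher and 1.76% lower. The difference was above 0 in 62 (43.7%), where 54.3% of all genes were above 0. The median was 0.01 over 49 replication genes, -0.04 over 54 mitosis genes, -0.07 over 21 other G1 regulators and -0.05 over 18 CDK inhibitors and brakes. Fen1, the flap endonuclease of lagging-strand synthesis, had 1188 and 3697 in positive and 1504 and 745 in negative cells. Its difference of 0.98 ± 0.43 (adjusted p 0.985 by limma) rested on positive replicate 2, without which it was 0.14, and it was 0.18 with less specific probe sets left out. Gtse1, a G2 and S-phase protein that restrains p53, was at 0.63 ± 0.26 and the mitotic kinesin Kifc1 at 0.53 ± 0.24, both with separated groups and a limma adjusted p of 0.985.

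Among the brakes, Ccng2, a cyclin linked to growth arrest, had 396 and 246 in positive cells, against 455 and 759 in negative cells. Its difference was -0.88 ± 0.29 (unadjusted p 0.00957, adjusted p 0.975 by limma), and both positive arrays lay below the negative arrays. It was -0.53 without negative replicate 2 and -0.55 without positive replicate 2. The CDK inhibitor genes Cdkn1a, for p21, and Cdkn1b, for p27, were at 0.02 and -0.34 with overlapping groups. Cdkn1a had signals of 136 and 113 in positive and 132 and 113 in negative cells, and Cdkn1b had 903 and 998 in positive and 953 and 1530.02 in negative cells. Cdkn1c, Cdkn2a and Cdkn2b were below the filter.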

How the data were processed

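Total RNA of 4 4T1 samples was hybridised to Affymetrix arrays of 1 colour. The deposited values were linear intensities per probe set (0.1 to 22695.6 over 45101 probe sets). GCOS is named in the submitters' processing notes, without a role or version. How probes were summarised, corrected for background and scaled is not stated in the labels used here. Arrays were quantile normalized (limma 3.58.1, R 4.3.3), since their trimmed means differed, and transformed as log2(value + 16), which understates differences of dim genes. Control probe sets (64) and probe sets below the 40th percentile of the mean were left out (27022 remained), and the brightest probe set with 1 gene symbol was used per gene. Names came from the platform annotation, which can be old. Groups were compared with lmFit and eBayes with an intensity trend (two-sided, 12.2 degrees of freedom with the prior). The number of arrays limits the precision: 2 arrays against 2 allow an exact permutation p of no less than 0.333. The procedure was tested on simulated data.

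The genes and lists were chosen with earlier results of these data known. Test values are given for genes with an unadjusted p under 0.05, the 3 highest and 3 lowest of each class, Mki67 and Pcna; other genes have values only. For lists outside the members, up to 3 genes per direction at that level are named. Alternatives were median centring, one trimmed mean, no scaling, pseudocounts of 1 and 64, no filter, the 60th percentile, the mean of probe sets, less specific probe sets (_x_at and _s_at) left out, eBayes without the trend, a block for the replicate number, and omission of each array in turn.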

Additional observations from a re-analysis of the deposited data

How the results depend on the processing

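No gene of the 45, and no gene of the 4 lists of the same processes, passed the adjusted threshold in any of the 15 alternatives. The lowest adjusted p of a member was 0.0940, for Ccne1 with arrays centred on their medians. The number of genes called over the whole array was 9, against 25 with arrays centred on their medians, 3 with no scaling, 3 with no filter and 2 without the intensity trend, and 6 to 16 when an array was left out, the 16 without positive replicate 1. With the replicate number as a block 18 genes were called, and none was a member. Deviations of same-numbered arrays correlated at 0.12 over 11956 genes, and nothing in the labels says what the numbers share, so the block is no paired design. The median of the G2 and mitosis genes was -0.034 with arrays centred on their medians, -0.12 with no scaling and 0.023 to 0.076 when an array was left out, the 0.023 without negative replicate 2. That of the G1 and S-phase genes was -0.092 with no scaling and ranged from -0.014 without negative replicate 2 to 0.146 without positive replicate 1, with 0.026 without positive replicate 2. Pcna turned to 0.10 with one trimmed mean and ranged from -0.22 to 0.12 when an array was left out. With an array left out Ccne2 ranged from -1.31 to 0.033 and Cdk2 from -0.41 to 0.079. The other 14 of the 17 genes given with a test kept their direction in all alternatives that gave a value, and Kifc1 gave none with less specific probe sets left out. Of the 33 genes given without a test, 25 changed sign in at least 1 alternative, among them 19 with no scaling, 10 with centring on medians and 11 without positive replicate 2, and Aurkb gave no value with less specific probe sets left out. Of 494 values of genes without a test of their own, 38 moved by more than the spread between replicates. The median of all genes also moved, from 0.03 to -0.07 with centring on medians and to -0.15 with no scaling. The part of this shift in the changes of sign was not tested.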
